A study of Mus musculus with 5 samples.

Results

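The transcriptome of peritoneal lavage cells after ovalbumin with alum was set against that after PBS, using 2 of the 5 arrays of the study. A gene entered the comparison if the scanner had marked its probe as well above background on either array. These were 15080 of the 20121 genes with a value on every array, and they are called measured below. In the OVA+Alum group, female BALB/c mice received 25 µg ovalbumin (OVA) and 200 µg Alum into the peritoneal cavity. In the PBS group, female BALB/c mice received the buffer alone by the same route. In both groups the cells of the cavity were collected after 2 h and total RNA was prepared, with no sorting named in the labels. Levels on the other 3 arrays are given beside these where they bear on a result. They came from mice of the same sex and strain at the same time after 25 µg OVA, after 25 µg OVA with 50 µg AEPS, and after 50 µg AEPS, a plant polysaccharide. The age of the mice, their number and whether their RNA was pooled are not stated. The OVA+Alum and PBS mice differed in both the protein and the aluminium salt.

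Alum is a particulate aluminium salt given with protein vaccines, and ovalbumin is an egg protein used as a model antigen. In the resting mouse peritoneum the main cells are large peritoneal macrophages, which depend on the transcription factor GATA6 and on retinoic acid, together with B-1 cells, smaller macrophages, mast cells and T cells, inside a lining of mesothelial cells. After a particulate irritant, neutrophils enter within hours while the large macrophages become harder to wash out, a response known as the macrophage disappearance reaction. Crystalline adjuvants are also known to activate the NLRP3 inflammasome and to make cells release their contents.

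Each group is 1 array, so the differences could not be checked against replicates and carry no p-value. Values are levels, meaning the log2 processed signal relative to the array's own 75th percentile, and differences between levels, OVA+Alum minus PBS. The ± value is a technical standard error from the scanner's error for each spot, with a median of 0.20. It holds neither the variation of mice nor that of arrays. For most genes given below it was close to that median, and it was not measured from replicate spots. The SD of replicate spots of a probe had a median of 0.05 on the OVA+Alum array and 0.07 on the PBS array. A gene counts as higher or lower once the arrays differ 2-fold or more (1 on the log2 scale). A level compares arrays for 1 probe and is not compared between probes. The 2 arrays were alike in the share of probes well above background, 60.0% on the OVA+Alum array and 59.5% on the PBS array, with no saturated spot. The PBS array was dimmer, with a 75th percentile of the signal of 337 against 426 on the OVA+Alum array, a log2 difference of 0.34. The spike-in probes differed by 0.05 on the log2 scale before scaling. The 2 arrays lay on the same slide in column 4, with OVA+Alum in row 2 and PBS in row 1. The row on the slide and the injection therefore cannot be told apart. The OVA, OVA+AEPS and AEPS arrays also lay in row 2, and PBS was the only array in row 1. Where PBS differs from all 4 other arrays below, row and injection again cannot be told apart.

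With OVA+Alum, 960 measured genes (6.37%) stood at least 2-fold above PBS and 799 (5.30%) at least 2-fold below it. At least 4-fold differences numbered 239 higher and 141 lower genes. The median difference of all measured genes was -0.07, and the 10th and 90th percentiles were -0.74 and 0.73. The split between higher and lower genes depended on the scaling. It was 1195 to 591 when arrays were scaled to their median, 1572 to 440 when they were scaled to the spike-in probes, and 512 to 264 after normexp background correction with quantile normalization. On the OVA+Alum array, 25.4% of measured genes had their highest level of the 5 arrays and 21.7% their lowest. List counts below stand against these percentages and list medians against -0.07, and some genes are in more than 1 list. Counts given for another scaling stand against its own shares of all genes. These were 10.4% higher and 2.92% lower with spike-in scaling, and 7.92% and 3.92% with the array median. After normexp with quantile normalization they were 3.40% and 1.75%. Where a signal on both arrays was required, they were 5.10% and 3.89%.

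**Figure D1:**
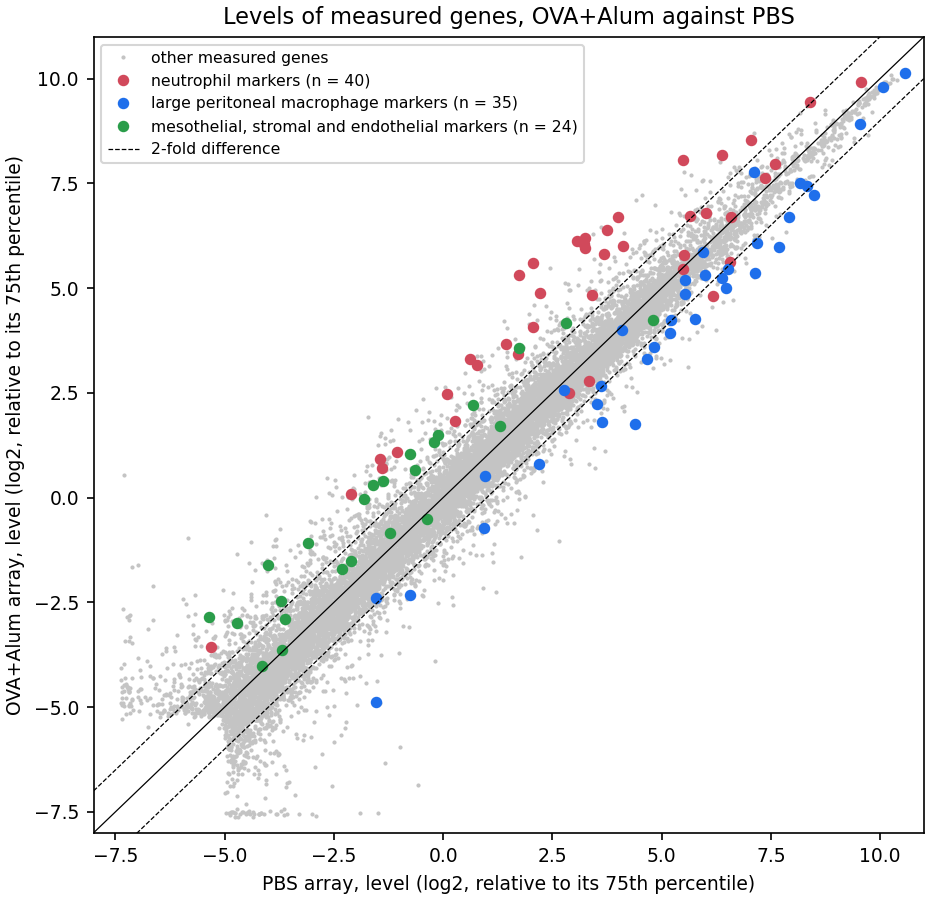
Level of each of the 15080 measured genes on the OVA+Alum array (vertical axis) against the PBS array (horizontal axis), both log2 relative to the array's 75th percentile, with solid line for equality and dashed lines at 2-fold. Most of the 40 neutrophil markers (red) lie above the upper dashed line and 19 of the 35 large peritoneal macrophage markers (blue) below the lower one. Of the 24 mesothelial, stromal and endothelial markers (green), 15 lie above the upper dashed line.

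Neutrophil genes stood higher with OVA+Alum than with PBS. Among the 40 markers measured, 29 exceeded PBS by 2-fold or more and 1 lay as far below it, with a median difference of 1.96. In total RNA of mixed cells, more or fewer cells of a type and more or less RNA per cell cannot be told apart, here and in every result below. Cxcr2, the receptor through which neutrophils follow CXC chemokines, had a level of 5.61 on the OVA+Alum array, of 4.41, 3.58 and 4.04 on the OVA, OVA+AEPS and AEPS arrays, and of 2.06 on the PBS array. Its difference was 3.55 ± 0.20, or 11.7-fold. Mmp8, the neutrophil collagenase, had 5.32 with OVA+Alum, 4.06, 4.34 and 4.75 on the same 3 other arrays, and 1.75 with PBS, a difference of 3.57 ± 0.20. For both genes the OVA+Alum array was the highest of the 5 and the PBS array the lowest. Retnlg, a secreted resistin-like protein of neutrophils, had 8.06 with OVA+Alum and 5.49 with PBS, and also 7.49, 7.62 and 8.02 on the OVA, OVA+AEPS and AEPS arrays. Other defining markers differed less. S100a8, a calcium-binding protein abundant in neutrophil cytosol, had 9.44 with OVA+Alum and 8.39 with PBS, and its partner S100a9 had 9.93 with OVA+Alum and 9.57 with PBS. Csf3r, the receptor for granulocyte colony-stimulating factor, had 6.80 with OVA+Alum and 6.03 with PBS, a difference of 0.77 ± 0.20 that did not reach 2-fold. The 1 marker at least 2-fold lower was Padi4, which citrullinates histones, at -1.35 ± 0.20, named after its value was seen. No probe was matched to Ly6g, the usual surface marker of mouse neutrophils.

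The neutrophil list stood above PBS on all 4 other arrays. Its median difference from PBS was 1.96 with OVA+Alum, 1.19 with OVA, 1.27 with OVA+AEPS and 1.60 with AEPS, and these values share the PBS array. Of the 40 markers, 24 had their highest level of the 5 arrays with OVA+Alum, against 25.4% of all measured genes. Other members of the list encode secreted and cytosolic proteins. Stfa1 and Stfa2, stefin inhibitors of cysteine proteases, were higher by 3.05 ± 0.20 and 2.83 ± 0.20, but such near-identical family members can share probe signal. Wfdc21, a small secreted protein, was higher by 2.95 ± 0.20 and Il1r2, the decoy receptor that captures interleukin 1, by 2.69 ± 0.20.

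**Figure D2:**
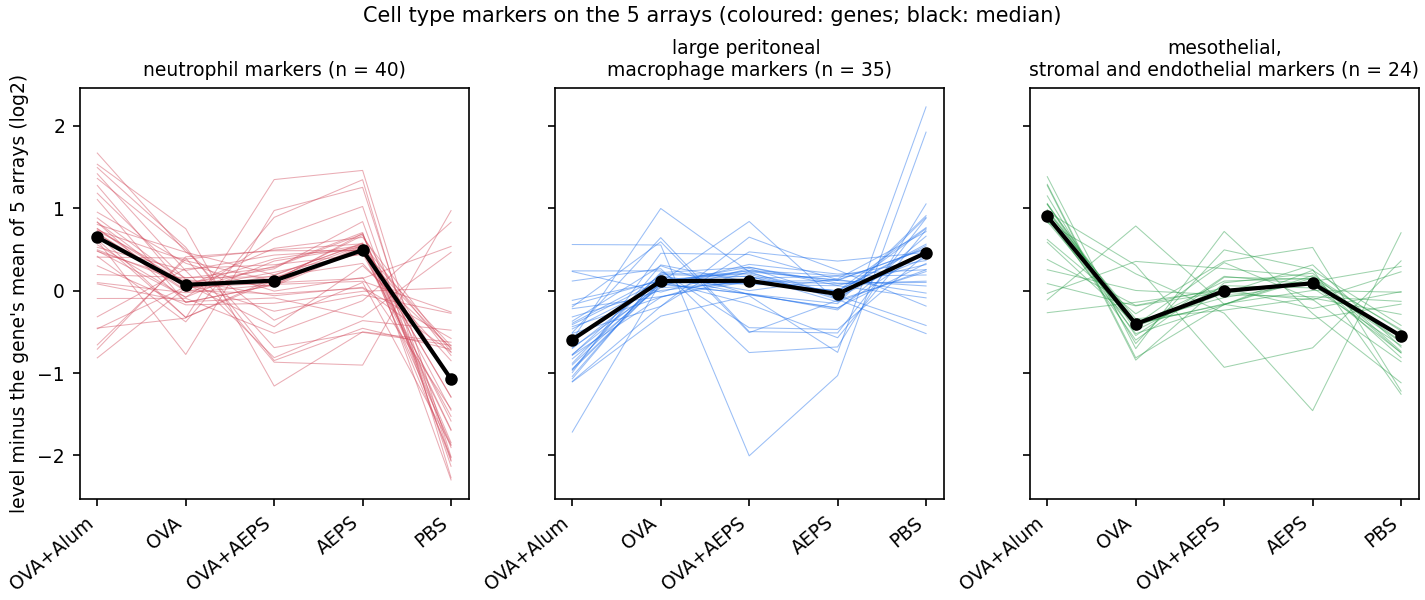
Levels of the neutrophil (40 genes), large peritoneal macrophage (35) and mesothelial, stromal and endothelial (24) markers on the OVA+Alum, OVA, OVA+AEPS, AEPS and PBS arrays (horizontal axis), as log2 level minus the gene's mean over the 5 arrays. Coloured lines are genes and black points are medians, with PBS lowest for neutrophil markers, OVA+Alum lowest for large macrophage markers and OVA+Alum highest for the mesothelial, stromal and endothelial markers.

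Large peritoneal macrophage genes stood lower with OVA+Alum. Of 35 measured markers, 19 were at least 2-fold lower, none was 2-fold higher, and 34 had a difference below 0, with a median of -1.10. Scaled to the spike-in probes, 11 of the 35 were at least 2-fold lower. Timd4, a receptor for phosphatidylserine on dying cells, had a level of 4.26 with OVA+Alum, of 5.53, 5.32 and 5.21 with OVA, OVA+AEPS and AEPS, and of 5.76 with PBS. Cd5l, a secreted scavenger protein of tissue macrophages, had 5.37 with OVA+Alum, 6.60, 6.41 and 6.56 on the same 3 other arrays, and 7.13 with PBS. For both genes OVA+Alum was the lowest array and PBS the highest. Icam2, an adhesion molecule used to gate these cells, differed by -1.25 ± 0.20 and Adgre1, the F4/80 antigen, by -1.10 ± 0.20. Gata6, the transcription factor that sets their identity, had 0.80 with OVA+Alum and 2.19 with PBS, but it had 0.82 and 0.80 with OVA+AEPS and AEPS as well. Marco, a scavenger receptor for particles and bacteria, differed most after Rarb, with 1.76 on the OVA+Alum array, 3.58, 4.31 and 3.34 on the OVA, OVA+AEPS and AEPS arrays, and 4.38 on the PBS array (-2.63 ± 0.20).

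The list was lowest on the OVA+Alum array. In all, 28 of the 35 macrophage markers had their lowest level of the 5 arrays there, against 21.7% of all measured genes. The list median relative to PBS was -1.10 with OVA+Alum, -0.25 with OVA, -0.27 with OVA+AEPS and -0.44 with AEPS. Naip1, a cytosolic sensor of bacterial proteins, differed by -1.66 ± 0.20. Arg1, the arginase of alternatively activated macrophages, had 1.12 with OVA+Alum, 2.31, 2.57 and 2.25 with OVA, OVA+AEPS and AEPS, and 3.71 with PBS. It was 1 of 2 lower genes among 25 of alternative activation, where 5 (9 with spike-in scaling) were higher. The neutrophil markers differed in the opposite direction in the same 2 samples, and their part in these values was not tested.

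Genes of retinoic acid handling were among those with the largest differences below PBS, and a list of 20 such genes was drawn up after these values were seen. Retinoic acid acts through receptors of the RAR family paired with RXR, which bind direct repeats in DNA and switch on genes that include the receptor Rarb itself and Cyp26a1, the enzyme that degrades retinoic acid. Cyp26a1 had a level of -4.91 with OVA+Alum, -2.44, -4.34 and -4.25 with OVA, OVA+AEPS and AEPS, and -1.43 with PBS, a difference of -3.47 ± 0.31. Rarb had -4.87 with OVA+Alum, -4.07, -3.82 and -4.51 on the same 3 other arrays, and -1.53 with PBS, a difference of -3.34 ± 0.30, and its further probe gave -2.19. Rarb was thus low on all 4 arrays but PBS. Cyp26a1 was low on 3 of them, while its level with OVA lay nearer to PBS than to OVA+Alum. Dhrs3, which turns retinaldehyde back into retinol, differed by -2.26 ± 0.20. Other members went the opposite way. Dhrs9, a retinol dehydrogenase, had 1.35 with OVA+Alum and -1.21 with PBS, and Rdh10, which forms retinaldehyde, had -1.75 with OVA+Alum and -3.13 with PBS. Of 17 measured members 4 were at least 2-fold higher and 4 at least 2-fold lower (2 and 3 after normexp with quantile normalization), with a median of -0.02.

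The promoters of 3 genes of large difference below PBS are printed because each holds the letters GTTCA and, after 6 bases of any kind, GTTCA again, a repeat of the kind that retinoic acid receptors are known to bind. The windows are 300 bases around the annotated start, from RefSeq on GRCm38.p6, read in the direction of the gene, with the match in capitals: Rarb lies at chr14:16575427-16575726 (minus strand), Cyp26a1 at chr19:37697558-37697857 (plus strand) and Cfap45, a cilia-associated protein, at chr1:172520880-172521179 (plus strand).
Rarb: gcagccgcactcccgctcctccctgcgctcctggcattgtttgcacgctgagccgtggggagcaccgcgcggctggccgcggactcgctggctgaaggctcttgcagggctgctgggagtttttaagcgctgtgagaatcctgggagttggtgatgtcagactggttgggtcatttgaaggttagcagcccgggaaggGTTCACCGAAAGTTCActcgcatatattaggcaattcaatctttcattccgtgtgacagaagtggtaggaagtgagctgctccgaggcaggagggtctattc
Cyp26a1: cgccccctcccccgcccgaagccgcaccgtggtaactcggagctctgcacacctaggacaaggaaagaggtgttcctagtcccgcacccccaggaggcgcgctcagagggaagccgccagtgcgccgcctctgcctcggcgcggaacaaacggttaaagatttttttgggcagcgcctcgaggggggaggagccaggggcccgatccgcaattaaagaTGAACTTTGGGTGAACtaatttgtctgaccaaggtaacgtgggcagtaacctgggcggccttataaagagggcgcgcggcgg
Cfap45: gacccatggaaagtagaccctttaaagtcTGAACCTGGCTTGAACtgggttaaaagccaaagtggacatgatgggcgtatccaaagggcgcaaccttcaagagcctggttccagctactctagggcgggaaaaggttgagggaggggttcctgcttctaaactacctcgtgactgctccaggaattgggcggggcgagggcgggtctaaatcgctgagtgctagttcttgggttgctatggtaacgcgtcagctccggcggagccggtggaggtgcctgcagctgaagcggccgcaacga
The match in Rarb lay 52 to 37 bases upstream of the start and read in the direction of the gene. In Cyp26a1 it lay 32 to 17 bases upstream and in Cfap45 221 to 206 bases upstream, on the opposite strand in both. Searched on both strands, the motif was found in 25 of 32851 promoter windows (0.0761%). Of the 8 measured genes with it, 4 were at least 2-fold lower (Rarb, Cyp26a1, Cfap45 and, just past the threshold at -1.01, Blvrb) and none was higher, with a median difference of -0.65. The motif was chosen after the values of Rarb and Cyp26a1 were seen, so this count supports nothing. Cfap45 had -3.71 with OVA+Alum and -1.01 with PBS. The related repeat with GGTCA in both places was in 33 windows (0.100%), and among its 9 measured genes 1 was at least 2-fold higher and 1 at least 2-fold lower. A match describes these letters and does not show binding.

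Markers of the peritoneal lining and of connective tissue were higher with OVA+Alum. Of 24 measured mesothelial, stromal and endothelial markers, 15 were at least 2-fold higher and none was 2-fold lower, with a median difference of 1.44. After normexp with quantile normalization 12 were higher, with a median of 0.96. Wt1, a transcription factor of mesothelial cells, had 0.30 with OVA+Alum, -1.17, -0.41 and -0.86 with OVA, OVA+AEPS and AEPS, and -1.61 with PBS. Msln, the mesothelial surface protein mesothelin, had 1.32 with OVA+Alum, 0.05, 0.45 and 0.79 on the same 3 other arrays, and -0.20 with PBS. Upk3b, a uroplakin of mesothelium, had -1.09 with OVA+Alum and -3.10 with PBS. Collagen and proteoglycan genes went the same way. Col1a1 had 1.03 with OVA+Alum and -0.77 with PBS, Dcn, which encodes decorin, 3.57 with OVA+Alum and 1.73 with PBS, and Lum, which encodes lumican, -1.61 with OVA+Alum and -4.01 with PBS. The endothelial markers Pecam1 and Cdh5 did not: Pecam1 had -0.51 with OVA+Alum and -0.37 with PBS, and Cdh5 had -4.02 with OVA+Alum and -4.14 with PBS. Of the 24 markers, 20 were highest on the OVA+Alum array, and the list median relative to PBS was 1.44 with OVA+Alum, 0.10 with OVA, 0.43 with OVA+AEPS and 0.69 with AEPS.

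None of 24 B cell markers reached 2-fold in either direction, with a median of -0.11, and Cd79b, a chain of the B cell receptor complex, had 8.37 with OVA+Alum and 8.81 with PBS. Among T and NK cell markers 1 of 29 was at least 2-fold higher (3 with spike-in scaling), Gzmb, a protease of cytotoxic granules, with 3.80 with OVA+Alum and 2.22 with PBS, while Cd3e, a chain of the T cell receptor complex, differed by 0.04 ± 0.20. Mast cell proteases were near equal, with Mcpt4 at 7.03 with OVA+Alum and 7.13 with PBS, and Cma1 at 5.20 with OVA+Alum and 5.19 with PBS. Cpa3, the mast cell carboxypeptidase, had 2.75 with OVA+Alum and 2.97 with PBS but 5.16, 4.94 and 5.04 with OVA, OVA+AEPS and AEPS. Cpa3 was thus low on both arrays of slide column 4, which the other 3 arrays did not share. Hdc, which makes histamine and is also made by neutrophils, had 8.17 with OVA+Alum and 6.39 with PBS. The haemoglobin gene Hbb-bs differed by -0.33 ± 0.20. Of the platelet markers, the chemokine Pf4 had 7.89 with OVA+Alum and 8.68 with PBS, and the integrin Itga2b was at least 2-fold higher, with -3.04 with OVA+Alum and -4.30 with PBS. Among small peritoneal macrophage and dendritic cell markers 3 of 23 were at least 2-fold lower and none higher (2 lower and 2 higher with spike-in scaling). Among these, Fcgr1, a high-affinity antibody receptor, had -0.30 with OVA+Alum and 1.69 with PBS. Of 22 inflammatory monocyte markers 3 were higher and 2 lower (4 and 1 with spike-in scaling). Ccr2, the receptor that draws monocytes, had 0.25 with OVA+Alum and 0.60 with PBS, and Gpr141, an orphan receptor, had -1.34 with OVA+Alum and -4.72 with PBS. Counts at 2-fold were 2 higher of 22 mast cell markers, 1 higher and 2 lower of 16 eosinophil and basophil markers, and 1 higher of 18 red cell and platelet markers. With spike-in scaling they were 4 higher of the mast cell markers, 4 higher and 0 lower of the eosinophil and basophil markers, and 3 higher of the red cell and platelet markers. Ccr3, the eotaxin receptor of eosinophils, had -0.05 with OVA+Alum and 1.11 with PBS, a difference of -1.16 ± 0.20, while Siglecf, another eosinophil marker, differed by 0.24 ± 0.20. The eosinophil peroxidase gene Epx was not well above background on either array.

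Of 35 measured inflammatory cytokines and growth factors, 13 were at least 2-fold higher and 3 at least 2-fold lower, with a median of 0.50. After normexp with quantile normalization 12 were higher and 1 lower. Of the 31 well above background on both arrays, 11 were higher and 1 lower. Il33, an alarmin released from damaged barrier cells, was not well above background with PBS and was at least 17.9-fold higher with OVA+Alum, where its level was -0.97, with -2.24, -0.51 and 0.06 on the OVA, OVA+AEPS and AEPS arrays. Il1b, the inflammasome-processed cytokine interleukin 1 beta, had 8.71 with OVA+Alum, 8.43, 8.33 and 8.62 on the same 3 other arrays, and 7.12 with PBS, a difference of 1.59 ± 0.20. Its antagonist Il1rn had 3.70 with OVA+Alum and 1.48 with PBS. Il1f9, an interleukin 36 family member, had 3.30 with OVA+Alum and 0.62 with PBS, and Il15, a growth factor of NK and memory T cells, had -0.33 with OVA+Alum and -2.43 with PBS. Of these 5 genes all but Il1b were higher on the AEPS array than on the OVA+Alum array. Tnfsf14 differed from them. This T cell costimulatory ligand had 4.25 with OVA+Alum, 3.08 with OVA, 1.56 and 2.34 with OVA+AEPS and AEPS, and 2.15 with PBS. Lif, an interleukin 6 family cytokine, was not well above background with OVA+Alum and was at least 3.47-fold lower than with PBS. The other 2 genes at least 2-fold lower were Il6 and Tslp, named after their values were seen.

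Some well-known inflammatory genes outside the naming rule were picked after their values were seen. Il6, a cytokine of fever and the acute phase, had 2.06 with OVA+Alum, 4.06, 5.43 and 5.62 with OVA, OVA+AEPS and AEPS, and 4.15 with PBS, a difference of -2.09 ± 0.20. OVA+Alum was thus the lowest of the 5 arrays for Il6. Tnf, tumour necrosis factor, had 3.88 with OVA+Alum, 4.81, 5.30 and 4.99 on the same 3 other arrays, and 4.21 with PBS, and did not reach 2-fold. Osm, oncostatin M, went the opposite way, with 3.36 with OVA+Alum, 1.45, 0.50 and 0.93 with OVA, OVA+AEPS and AEPS, and 1.45 with PBS. The neutrophil chemoattractants Cxcl1 and Cxcl2 differed by 0.28 ± 0.20 and 0.97 ± 0.20, and Ccl2, which draws monocytes, by 0.32 ± 0.20. None of these 3 reached 2-fold with the reported scaling. Cxcl2 lay just short of it and passed it when arrays were scaled to their median or to the spike-ins. The CXCR2 ligand Cxcl5, given below, differed by 2.72. Nlrp3, the sensor of the crystal-activated inflammasome, differed by 0.34 ± 0.20, and Casp1, its protease, by -0.60 ± 0.20.

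Among 9 measured T helper cytokines 3 were at least 2-fold higher. Of the 8 well above background on both arrays, 2 were higher. Il17a, a cytokine that draws neutrophils, was not well above background with PBS and was at least 7.09-fold higher with OVA+Alum. Ifng, interferon gamma, had 1.82 with OVA+Alum, 0.87, 1.52 and 2.18 with OVA, OVA+AEPS and AEPS, and -0.22 with PBS. The type 2 cytokine Il5 had -2.68 with OVA+Alum and -3.57 with PBS, and Il13 had -2.82 with OVA+Alum and -3.32 with PBS, below 2-fold. Cytokine receptors stood higher in 8 of 28 genes (14 with spike-in scaling) and lower in none. Among these, Il18rap, a chain of the interleukin 18 receptor, differed by 2.11 ± 0.21, Osmr, the oncostatin M receptor, by 1.87 ± 0.21, and Tnfrsf1b, a receptor for tumour necrosis factor, by 1.49 ± 0.20.

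Chemokines were mixed, with 6 of 29 at least 2-fold higher and 4 at least 2-fold lower (10 and 11 higher when scaled to the array median and to the spike-ins). Of the 28 well above background on both arrays, 6 were higher and 3 lower. Cxcl5, a ligand of CXCR2, had 0.25 with OVA+Alum, -0.27, 0.83 and 0.54 with OVA, OVA+AEPS and AEPS, and -2.46 with PBS, a difference of 2.72 ± 0.21. Ccl4, which draws monocytes and lymphocytes, had 7.37 with OVA+Alum, 6.93, 8.55 and 8.56 on the same 3 other arrays, and 5.44 with PBS. Cxcl10, an interferon-induced ligand, had 4.58 with OVA+Alum, 5.45, 8.23 and 8.16 with OVA, OVA+AEPS and AEPS, and 2.35 with PBS, so OVA+Alum lay lowest of the 4 treated arrays. Of the lower ones, Cxcl15, a CXC chemokine, had the largest difference of the list, -3.72. It was not well above background with OVA+Alum, so that value depends on its signal there. Also among the lower ones were homeostatic chemokines. Cxcl14 had 0.80 with OVA+Alum and 3.34 with PBS, and Cxcl12, the ligand that holds cells in marrow and tissue, had -2.34 with OVA+Alum and -0.47 with PBS. Among 28 chemoattractant receptors 4 were higher and 5 lower (8 and 4 with spike-in scaling). Ackr3, a scavenger of CXCL12, had 0.71 with OVA+Alum and 3.47 with PBS, and C3ar1, the receptor for complement fragment C3a, had -0.41 with OVA+Alum and 2.05 with PBS. Cxcr1 had 1.10 with OVA+Alum and 0.32 with OVA, against -1.06 with PBS, and -1.59 and -0.94 with OVA+AEPS and AEPS.

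**Figure D3:**
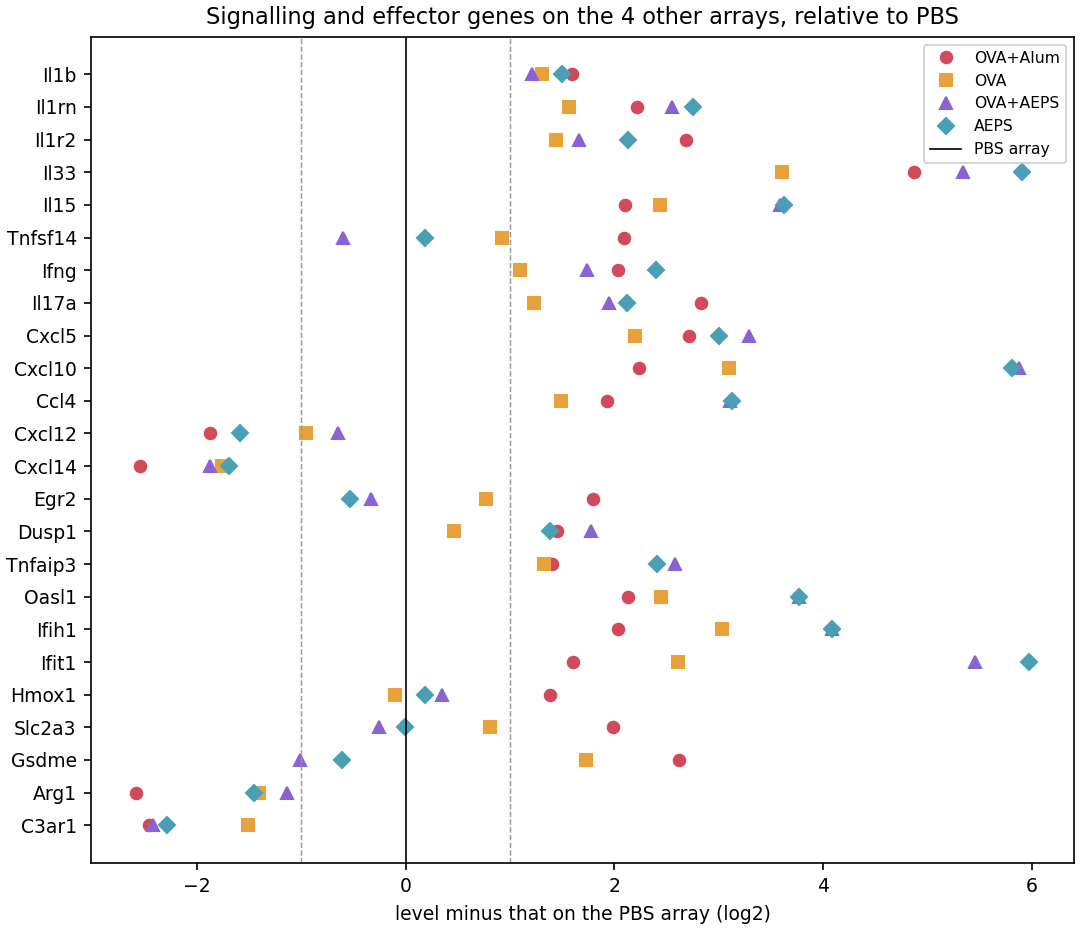
Level of 24 signalling and effector genes minus their level on the PBS array (log2, horizontal axis), with 1 symbol for each of the OVA+Alum, OVA, OVA+AEPS and AEPS arrays and dashed lines at 2-fold. The genes were picked from those named in the text for display. Il33 and Il17a were not well above background with PBS, so their positions depend on that value. Egr2, Tnfsf14, Slc2a3 and Gsdme stand further right with OVA+Alum than with AEPS, while Cxcl10 and Ifit1 stand further right with AEPS.

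Immediate early genes, which are switched on within minutes of cell stimulation and many of which encode transcription factors, stood higher as a list. Of 29 measured, 13 were at least 2-fold higher and 2 at least 2-fold lower (16 and 1 with spike-in scaling), with a median of 0.88. The list median relative to PBS was 0.07 with OVA, -0.03 with OVA+AEPS and -0.18 with AEPS, and 18 of the 29 genes were highest on the OVA+Alum array. Egr2, a zinc finger transcription factor, had 5.18 with OVA+Alum, 4.15, 3.04 and 2.85 with OVA, OVA+AEPS and AEPS, and 3.38 with PBS. Fosl2, an AP-1 subunit, had 6.07 with OVA+Alum and 4.60 with PBS, with a further probe at 0.71. Btg2, an antiproliferative gene, had 5.59 with OVA+Alum and 4.18 with PBS. Klf4 went the opposite way, with 0.80 with OVA+Alum and 2.18 with PBS. Of 26 signal brakes, genes that dampen cytokine and growth factor signals, 9 were at least 2-fold higher and 1 lower (10 and 0 with spike-in scaling). Dusp1, a phosphatase that switches off MAP kinases, had 5.86 with OVA+Alum and 4.41 with PBS, and Cish, an inhibitor of cytokine receptors, had 5.21 with OVA+Alum and 3.89 with PBS.

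Interferon-stimulated genes were higher in 15 of 48 (23 with spike-in scaling) and lower in none, with a median of 0.67. Oasl1, an antiviral protein of the 2'-5' oligoadenylate synthetase family, had 6.97 with OVA+Alum, 7.29, 8.62 and 8.62 with OVA, OVA+AEPS and AEPS, and 4.84 with PBS. Ifih1, the RNA sensor MDA5, had 2.50 with OVA+Alum, 3.50, 4.55 and 4.55 on the same 3 other arrays, and 0.47 with PBS. Ifit1, an antiviral protein, had 2.24 with OVA+Alum, 3.25, 6.10 and 6.62 with OVA, OVA+AEPS and AEPS, and 0.64 with PBS. The list median relative to PBS was 0.67 with OVA+Alum, 0.86 with OVA, 2.44 with OVA+AEPS and 2.51 with AEPS, all sharing the PBS array, and 1 of the 48 was highest on the OVA+Alum array. NF-kB subunits and feedback genes showed a like order. Of 31, 6 were higher and none was lower, with a median of 0.38 with OVA+Alum and 0.99 with AEPS. Tnfaip3, the ubiquitin-editing enzyme A20 that restrains NF-kB, had 6.41 with OVA+Alum, 6.33 with OVA, 7.58 with OVA+AEPS, 7.42 with AEPS and 5.01 with PBS. Acod1, which makes itaconate, had 7.88 with OVA+Alum and 6.77 with PBS.

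The inflammasome and pyroptosis list had 4 of 26 genes at least 2-fold higher and 2 lower, with a median of -0.02. Besides Il1b, Gsdme, a membrane pore protein, had 3.39 with OVA+Alum, 2.50 with OVA, -0.24 with OVA+AEPS, 0.16 with AEPS and 0.77 with PBS. Nlrp1b, a cytosolic sensor, had 0.33 with OVA+Alum and -1.39 with PBS. Pycard, the adaptor ASC that joins sensors to caspase 1, had 4.11 with OVA+Alum and 5.93 with PBS, a difference of -1.82 ± 0.20. Of 29 lysosomal and cathepsin genes 1 was at least 2-fold higher, Ctsk, with -2.88 with OVA+Alum and -4.68 with PBS, and 1 was lower, Gusb. Their median was -0.35 with OVA+Alum, -0.29 with OVA, -0.18 with OVA+AEPS and -0.32 with AEPS, relative to PBS. With spike-in scaling the median with OVA+Alum was -0.05, against 0.22 for all measured genes. Among pattern recognition receptors 4 of 38 were at least 2-fold higher (7 with spike-in scaling), of which Trem1, an amplifier of innate signals, had 6.01 with OVA+Alum and 4.11 with PBS, and Trem3 had 3.48 with OVA+Alum and 1.46 with PBS. Trem1 is also expressed by neutrophils, and the neutrophil markers' part in these values was not tested.

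Complement genes stood lower in 7 of 25 (4 with spike-in scaling) and higher in 2, with a median of -0.68. The C1q chains, products of tissue macrophages, differed by -1.71 ± 0.20 (C1qa), -1.51 ± 0.20 (C1qc) and -1.48 ± 0.20 (C1qb). C1s1, a protease of the first component, was higher at -0.02 with OVA+Alum and -2.08 with PBS, and Serping1, the inhibitor of C1, was higher at 1.63 with OVA+Alum and -0.05 with PBS. Eicosanoid synthesis had 5 of 20 genes at least 2-fold lower and none higher, with a median of -0.13. With spike-in scaling the median was 0.16, against 0.22 for all measured genes. Ltc4s, which makes leukotriene C4, had 4.72 with OVA+Alum and 6.64 with PBS, Ptgs1, the constitutive cyclooxygenase, had 3.20 with OVA+Alum and 5.05 with PBS, and Alox15, which makes lipid mediators of resolution in mice, had 3.92 with OVA+Alum and 5.19 with PBS. Ptgs2, the inducible cyclooxygenase, had 2.80 with OVA+Alum and 1.94 with PBS, a difference of 0.86 ± 0.20 that did not reach 2-fold. Large macrophage markers were lower in the same 2 samples, and their part in these values was not tested. Among adhesion molecules and matrix proteases 11 of 29 were higher (7 after normexp with quantile normalization) and 3 lower. Of the 26 well above background on both arrays, 9 were higher and 2 lower. Vcam1, an adhesion molecule, had 1.81 with OVA+Alum and -0.80 with PBS. Timp1, an inhibitor of matrix proteases, had 4.38 with OVA+Alum and 1.97 with PBS. Of 20 coagulation and fibrinolysis genes, 3 were higher and 2 lower (6 and 1 with spike-in scaling). Fga, a chain of fibrinogen, had -2.52 with OVA+Alum and -0.12 with PBS.

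Iron and haem genes stood higher in 6 of 24 and lower in 3 (7 and 0 with spike-in scaling). Of the higher ones Lcn2, Ltf and Hp are also in the neutrophil list, whose part in these values was not tested. Lcn2, which binds bacterial siderophores, had 6.69 with OVA+Alum, 5.90, 7.17 and 7.62 with OVA, OVA+AEPS and AEPS, and 4.01 with PBS. Slc40a1, the iron exporter ferroportin, had 2.98 with OVA+Alum, 2.38 with OVA, -1.58 with OVA+AEPS, -0.88 with AEPS and 0.50 with PBS. Hmox1, which breaks down haem, had 4.83 with OVA+Alum, 3.35, 3.80 and 3.64 on the OVA, OVA+AEPS and AEPS arrays, and 3.45 with PBS. Slc40a1 and Hmox1 were highest on the OVA+Alum array, whereas Lcn2 was highest with AEPS. Glycolysis and hypoxia genes were higher in 6 of 26 and lower in none, with a median of 0.10, and 11 were highest on the OVA+Alum array. Slc2a3, a glucose transporter of neurons and leukocytes, had 5.08 with OVA+Alum, 3.90, 2.83 and 3.08 with OVA, OVA+AEPS and AEPS, and 3.09 with PBS. Slc2a1, the widespread glucose transporter, had 6.03 with OVA+Alum and 4.51 with PBS. Among heat shock and oxidative stress genes 3 of 28 were higher and 1 lower. Slc7a11, the cystine transporter, had -0.52 with OVA+Alum and -2.62 with PBS, and the chaperone gene Hspa1a had -1.44 with OVA+Alum and 0.36 with PBS.

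The remaining lists had fewer genes past 2-fold. Antigen presentation and co-stimulation genes had a median of -0.07, with 2 of 30 at least 2-fold higher, Nlrc5, a regulator of class I genes, at 1.18 ± 0.20 and Tap1, a peptide transporter subunit, at 1.02 ± 0.20. The class II gene H2-Ab1 had 9.18 with OVA+Alum and 9.33 with PBS. Of 25 sterol genes 2 were lower and none higher, led by Nr1h3, a receptor for oxysterols, with -0.39 with OVA+Alum and 1.56 with PBS. Of 26 cell cycle genes 1 was lower, E2f1, with -0.57 with OVA+Alum and 0.56 with PBS, and 23 had a difference below 0, with a median of -0.62. Of 20 integrated and ER stress genes 1 was higher and 2 lower, and of 20 purinergic genes 2 were higher and 2 lower. With spike-in scaling these counts were 4 and 1 for stress genes and 6 and 1 for purinergic genes. In the stress list Sdf2l1, a chaperone of the endoplasmic reticulum, had 2.53 with OVA+Alum and 4.45 with PBS. Of 17 housekeeping genes 2 were lower and none higher, with Actb at 9.80 with OVA+Alum and 10.03 with PBS, Gapdh at 8.61 with OVA+Alum and 9.10 with PBS, and Tbp at 1.47 with OVA+Alum and 1.43 with PBS. With spike-in scaling no cell cycle gene and no housekeeping gene was past 2-fold.

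**Figure D4:**
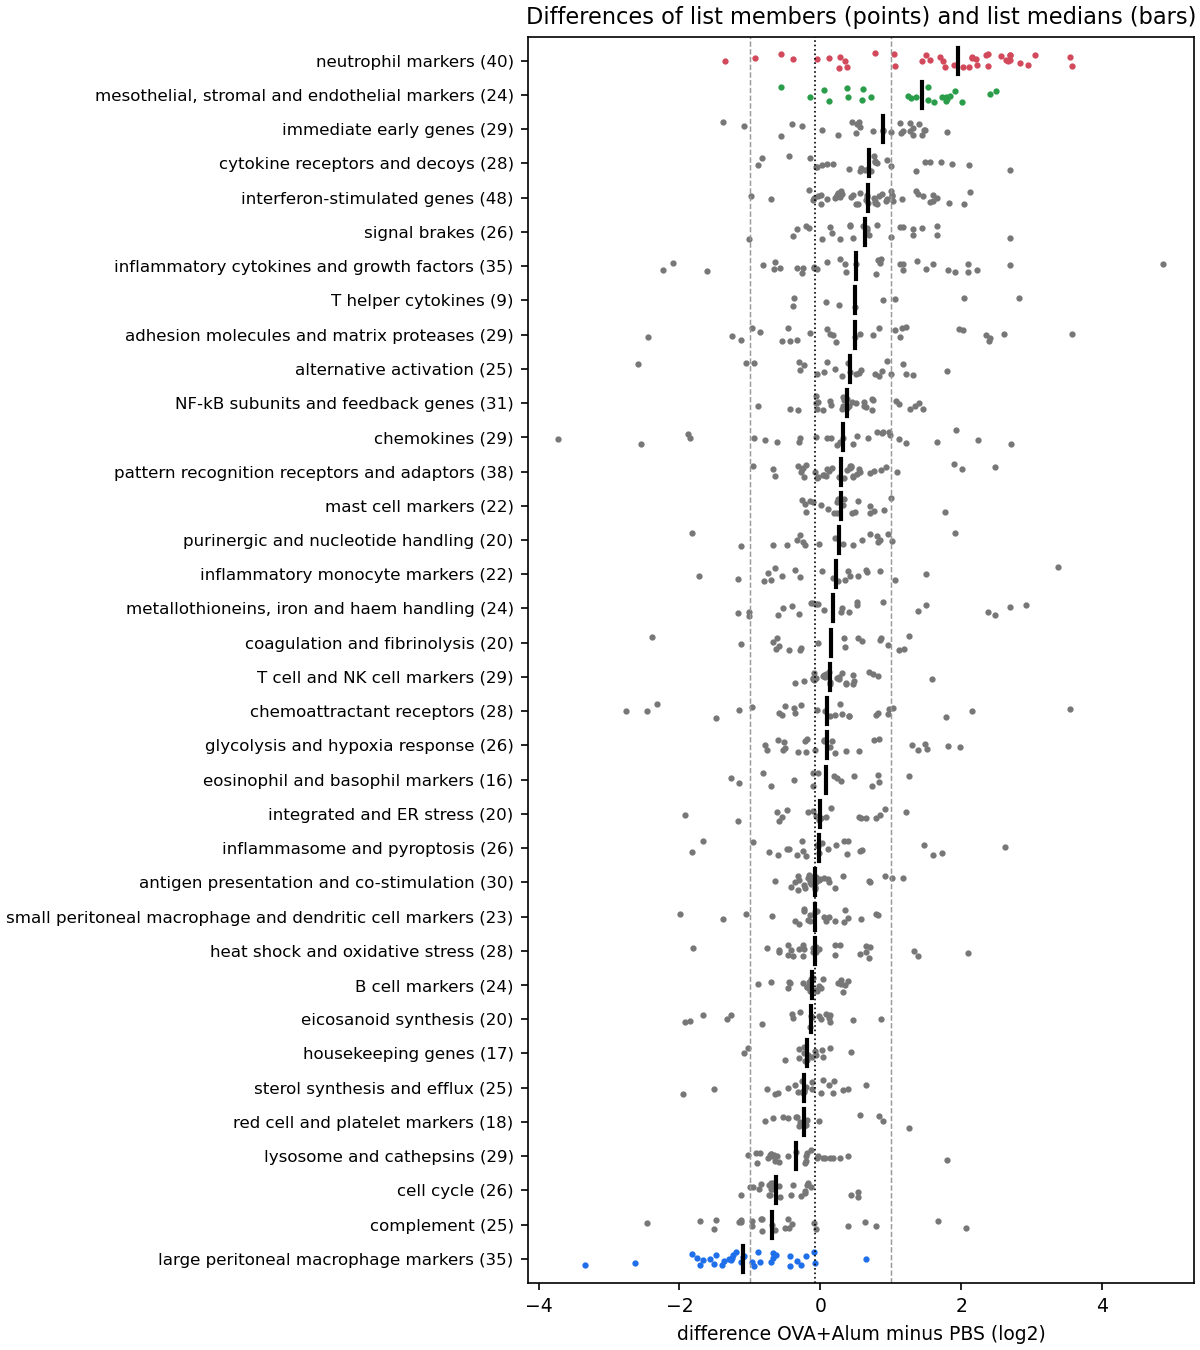
Difference OVA+Alum minus PBS (log2, horizontal axis) for every measured member of 36 gene lists, with list medians as black bars and the number of members in brackets. Dashed lines mark 2-fold and the dotted line the median of all measured genes, -0.07. Neutrophil markers have the highest list median, 1.96, and large peritoneal macrophage markers the lowest, -1.10.

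Several of the largest differences among genes detected on both arrays were outside these lists. Scrg1, first described as responsive to scrapie, had 1.92 with OVA+Alum, 0.79, 0.56 and 0.93 with OVA, OVA+AEPS and AEPS, and -1.73 with PBS, a difference of 3.64 ± 0.21. Il22ra1, a chain of the interleukin 22 receptor, had -1.05 with OVA+Alum, -4.59 with OVA, -2.72 with OVA+AEPS and -4.40 with PBS, and was not well above background with AEPS. Cpeb2, an mRNA-binding regulator of translation, had 0.46 with OVA+Alum, -1.25, -2.14 and -1.85 on the other 3 arrays, and -2.65 with PBS. Ifnlr1, a chain of the interferon lambda receptor, had 1.54 with OVA+Alum, 0.42, 0.50 and 0.86 with OVA, OVA+AEPS and AEPS, and -1.42 with PBS. For all 4 genes OVA+Alum was the highest array. Rnd1, a small GTPase, also differed from PBS (5.48 with OVA+Alum and 2.45 with PBS) but was higher still with OVA+AEPS (7.03) and AEPS (6.75). Cacna1d, a calcium channel subunit, had -0.42 with OVA+Alum and -4.06 with PBS on its brightest probe, but its further probe differed by 0.15.

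**Figure D5:**
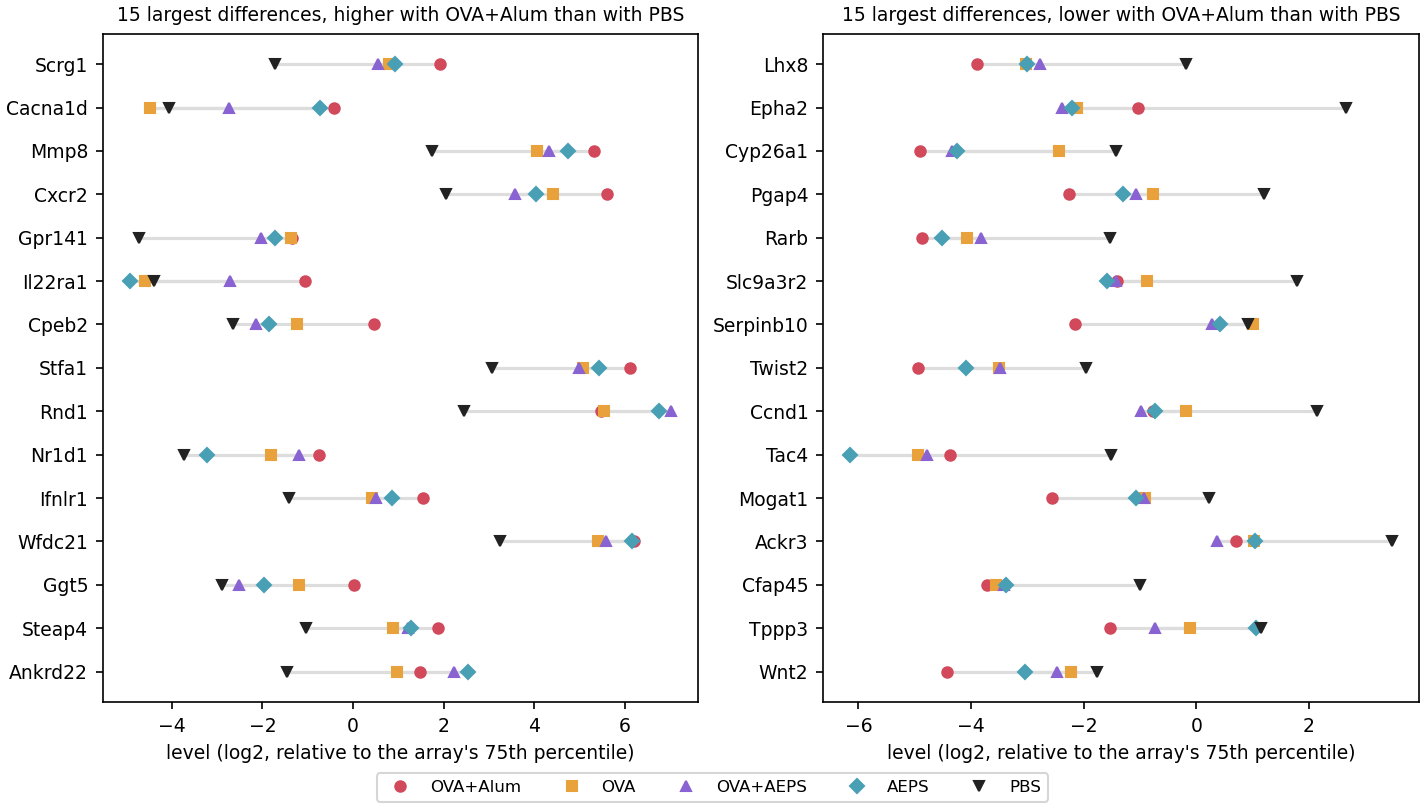
Levels (log2 relative to the array's 75th percentile, horizontal axis) of the 15 genes with the largest difference above PBS (left) and the 15 with the largest difference below PBS (right), among genes detected above background on both, on the OVA+Alum, OVA, OVA+AEPS, AEPS and PBS arrays. In the left panel PBS lies at or near the low end, and in the right panel Epha2, Lhx8, Slc9a3r2, Ackr3 and Ccnd1 have PBS well above all 4 other arrays.

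Of the genes with the largest differences below PBS, several stood apart on the PBS array alone. Epha2, an ephrin receptor kinase, had -1.03 with OVA+Alum, -2.11, -2.39 and -2.21 with OVA, OVA+AEPS and AEPS, and 2.66 with PBS, a difference of -3.69 ± 0.20. Lhx8, a LIM homeobox transcription factor, had -3.90 with OVA+Alum and -0.18 with PBS, with values between -3.02 and -2.78 on the other 3 arrays. Ccnd1, the G1 cyclin D1, had -0.77 with OVA+Alum, -0.17, -0.98 and -0.73 with OVA, OVA+AEPS and AEPS, and 2.14 with PBS. For these 3 genes the 4 treated arrays lay together and below PBS. Serpinb10, a protease inhibitor, was low on the OVA+Alum array instead, with -2.16 there, 1.01, 0.28 and 0.42 with OVA, OVA+AEPS and AEPS, and 0.92 with PBS. Wnt2, a secreted signalling protein, had -4.42 with OVA+Alum, -2.22, -2.47 and -3.05 on those 3 arrays and -1.77 with PBS. Of the 799 lower genes, 669 were highest on the PBS array and 531 were lowest on the OVA+Alum array. Of the 960 higher genes, 668 were lowest on the PBS array and 687 highest on the OVA+Alum array. Over all measured genes 25.4% were highest and 21.7% lowest on the OVA+Alum array, and no such share was taken for PBS. Choosing genes by their difference between these 2 arrays itself favours them as the extremes, so these counts support nothing further.

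Genes well above background on only 1 of the 2 arrays numbered 471 on OVA+Alum and 387 on PBS, and their differences are bounds. Ptx3, a long pentraxin of innate immunity, was at least 11.5-fold higher with OVA+Alum, with a level of -1.62 there and -3.52, -2.64 and -2.92 on the OVA, OVA+AEPS and AEPS arrays. Tmem169, a predicted membrane protein, had the largest bound, at least 51.4-fold, but was above background on no array but OVA+Alum. On the other side Adm2, a peptide of the calcitonin family, was at least 33.2-fold lower with OVA+Alum, and Shank3, a scaffold of synapses, at least 24.9-fold lower, with a further probe at -1.79. Adm2 was not well above background on any array but PBS, and Shank3 had -5.12, -4.27 and -4.17 on the OVA, OVA+AEPS and AEPS arrays against -0.98 with PBS. Among the 960 higher genes 193 had a further measured probe, and for 110 it was also at least 2-fold higher while for 3 it was at least 2-fold lower. Among the 799 lower genes these numbers were 100, 60 and 0.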

How the data were processed

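RNA of peritoneal lavage cells was measured on 5 1-colour Cy3 arrays of the design Agilent-028005, of which the OVA+Alum and PBS arrays were compared. Per the file headers, the scanner files as deposited hold intensity on a linear scale, made with Agilent Feature Extraction 10.7.1.1, with background subtracted and no step between arrays, and flags per spot, which are other values of 0 or 1. The series table deposited by the authors holds log2 values, whose scale was worked out from the values (column medians all 4.66, r of 0.9998 or more with the log2 processed signal). It was used as an alternative.

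Control spots (3671 per array) and outlier spots (134 on PBS to 219 on OVA+Alum) were left out. The processed signal was taken as log2, the 75th percentile of the array was subtracted and spots of a probe were averaged (Python 3.11.15, pandas 2.3.3, figures with matplotlib 3.10.9). Quantile and normexp alternatives used limma 3.58.1 in R 4.3.3. Probes were named by matching transcripts to RefSeq of GRCm38.p6. Of 55681 probes, 26582 had 1 symbol and 29099 had none, which leaves them unnamed here. The brightest probe stood for a gene.

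Measured genes were well above background on at least 1 of the 2 arrays, and no test was possible with 1 array per group. The number of arrays limits the precision. A bound used the higher of the dim probe's own signal and the lowest signal well above background on that array. The rule named the 15 largest differences each way among genes above background on both, the 6 largest bounds each way, up to 6 members of each list by size, the defining markers of cell types, and 4 housekeeping genes. The text gives a choice of these. The members, the 36 lists and the rule were chosen with earlier results of these data known, and 3 more lists (retinoid, circadian clock, hyaluronan and acute phase) were added after values were seen. The calculation was tested on simulated data. The array files name no genome build, and the only coordinates given are those of RefSeq promoters.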

Additional observations from a re-analysis of the deposited data

How the results depend on the processing

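Scaling to the median of each array gave 66.9% of called genes as higher, quantile normalization gave 62.0%, the table deposited by the authors gave 61.8%, and normexp with quantile normalization 66.0% (512 higher and 264 lower), against 54.6% (95% Wilson interval 52.2% to 56.9%, counting error only) with the 75th percentile. Spike-in scaling gave 78.1%, with 1572 genes higher and 440 lower. The median difference of all measured genes was -0.07 with the 75th percentile, 0.06 with the array median and 0.22 with the spike-ins. Without a filter on dim probes 1317 genes were lower and 47.7% of the called genes were higher. Over all non-control probes, named or not, 2018 were higher and 1959 lower (50.7% higher). The median over the probes of a gene, and genes above background on both arrays, kept counts within 1.5 times of those reported. List medians were taken relative to all genes over the alternatives. In 311 cases they moved by less than the 95% range of the technical error, and in 1 case, the mesothelial, stromal and endothelial list after normexp with quantile normalization, the value was 0.98, against 1.52 as reported. Relative to all genes, the median of 8 lists, between -0.12 and 0.07 as reported, had the other sign under at least 1 alternative. None of the 189 named genes at least 2-fold apart changed sign under the alternatives run. Over all 284 named genes and the alternatives, 80 values moved by more than the 95% range of their technical error, 68 after normexp with quantile normalization and 12 with the median over the probes of a gene. No paired analysis was possible because each group has 1 array and the labels give no replicate numbers. Signal over background limits the genes seen on 1 array only, which have bounds and no fold.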

Other observations

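Circadian clock genes, a list drawn up after their values were seen, were higher with OVA+Alum than with PBS in 6 of 17 measured members (11 with spike-in scaling, 3 after normexp with quantile normalization) and lower in none, with a median difference of 0.84. Nr1d1, the repressor REV-ERB alpha, had a level of -0.75 with OVA+Alum, of -1.80, -1.19 and -3.23 with OVA, OVA+AEPS and AEPS, and of -3.73 with PBS. Per1, a core clock repressor that glucocorticoids and other signals also induce, had 4.65 with OVA+Alum, 3.03, 3.71 and 3.48 on the same 3 other arrays, and 2.84 with PBS. Per2, Nr1d2 and Tef, further clock genes, differed by 1.66 ± 0.24, 1.52 ± 0.21 and 1.04 ± 0.20. In all, 9 of the 17 were highest on the OVA+Alum array. The labels give the time after injection and no time of day.

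Genes of the hyaluronan matrix and of the acute phase, also listed after their values were seen, were higher in 7 of 12 measured members and lower in none. Some members, such as Ptx3, counted as measured only through the OVA+Alum array, where they were high. Of the 8 members well above background on both arrays, 5 were higher. The list median relative to PBS was 1.33 with OVA+Alum, 1.16 with OVA, 2.48 with OVA+AEPS and 2.28 with AEPS. Tnfaip6, which links hyaluronan to inter-alpha-inhibitor, had 2.63 with OVA+Alum, 0.84, 1.71 and 1.93 on the OVA, OVA+AEPS and AEPS arrays, and 0.05 with PBS. Has1, a hyaluronan synthase, had 0.43 with OVA+Alum and -1.29 with PBS, and Saa2, an acute phase apolipoprotein, had 4.34 with OVA+Alum and 2.58 with PBS. Serpina3n, a secreted protease inhibitor, was not well above background with PBS and was at least 5.58-fold higher with OVA+Alum.

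Of 15213 probes with no gene symbol that were measured, 823 (5.41%) were at least 2-fold higher and 969 (6.37%) at least 2-fold lower. Among 7861 measured probes to intergenic regions, 439 (5.58%) were higher and 557 (7.09%) lower, with a median difference of -0.21.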
